A study of Rattus norvegicus with 6 samples.

Results

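Markers of tubular injury and dedifferentiation were followed in renal cortex from 6 rats, males of the Sprague-Dawley strain, with 1 Agilent single-colour array per animal. The 10 markers, listed by gene symbol, were Havcr1, Lcn2, Clu, Spp1, Vim, Krt8, Krt18, Krt19, Krt20 and Sox9. Through their RefSeq accessions, 12 of the 61453 probes analysed belonged to 9 of them: 3 to Krt18, 2 to Clu and 1 each to the others. No probe matched Sox9, a transcription factor switched on in regenerating tubule cells, which was not analysed here. The dibromoethane group was 3 rats dosed with 1,2-dibromoethane, a brominated alkane once used as a fumigant, at 75 mg/kg/day for 4 weeks. The control group was 3 rats given the corn oil vehicle over the same 4 weeks. Both groups were outbred animals of the Crl:CD(SD) stock, bought at 5 weeks of age and fed a basal diet, and the labels give no pooling. The comparison asks which of these markers differed in level between dosed and vehicle animals, and in how many animals.

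When a proximal tubule cell is damaged it loses its brush border, flattens and stops making many of its transporters, and the surviving cells turn on genes of an undifferentiated epithelium before they divide and mature again. Havcr1 encodes kidney injury molecule 1, a membrane receptor that appears on injured proximal tubule cells and binds dying cells. Lcn2 (NGAL), Clu (clusterin) and Spp1 (osteopontin) encode secreted proteins that are measured in urine or tissue as signs of kidney damage, and are also made by healthy distal segments. Vim encodes vimentin, an intermediate filament of mesenchymal cells that dedifferentiated tubule cells also make. Krt8, Krt18, Krt19 and Krt20 encode keratins, in which a type II chain (Krt8) pairs with a type I chain (the other 3). Because whole cortex was used, fewer cells of a type and less RNA per cell cannot be told apart.

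Sequence before an annotated start is shown for Havcr1, Krt8 and Krt18. Havcr1 is the marker with 1 animal set apart, and Krt8 and Krt18 are the paired keratins with steady levels. Each line runs 5′ to 3′ on the gene's strand, from 225 to 76 bases before the start in RefSeq's promoter set for the assembly GRCr8. The windows lie at chr10:31629553-31629702, plus strand for Havcr1, at chr7:135010415-135010564, minus strand for Krt8, and at chr7:135035943-135036092, plus strand for Krt18. The Havcr1 window lies inside the annotated gene (chr10:31619914-31652955), before an internal start, and so is not upstream of the whole gene. Capitals mark TATAAA on either strand, with overlapping matches merged.
Havcr1: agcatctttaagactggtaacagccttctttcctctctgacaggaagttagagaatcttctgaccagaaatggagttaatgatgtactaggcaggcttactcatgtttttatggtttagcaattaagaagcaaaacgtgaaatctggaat
Krt8: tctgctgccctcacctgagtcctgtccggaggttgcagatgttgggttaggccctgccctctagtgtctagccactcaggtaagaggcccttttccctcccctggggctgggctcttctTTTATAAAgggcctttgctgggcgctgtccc
Krt18: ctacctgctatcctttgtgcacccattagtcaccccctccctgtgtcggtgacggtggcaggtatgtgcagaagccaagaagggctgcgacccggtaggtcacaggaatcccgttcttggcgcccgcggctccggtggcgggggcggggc

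Promoter sequences were on hand for 7 of the 10 markers. Over the 250 bases before the start, searched on both strands, TATAAA occurred in 4 of the 7 (Krt8, Krt20, Spp1 and Vim), against 12.9% of 33469 rat promoters. TTCNNNGAA, a core written for STAT factors, occurred in 0 of the 7, against 7.67% of all promoters. These matches describe letters in a window and no measurement here bears on binding.

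Levels are log2 processed signals relative to the array's 75th percentile, so that 0 is the 75th percentile and a difference of 1 is 2-fold. Of the 12 marker probes, 10 (for 7 genes) were well above background in every animal and were tested; Havcr1 and Krt20 were not. In limma, 0 of the 10 passed a Benjamini-Hochberg adjusted p of 0.05, where 10 of 37274 tested probes did (0.0268%), and 0 of the 10 had an unadjusted p under 0.05, where 11.3% of all tested probes did. That count was 3 of 10 with slide as a fixed block (both Clu probes and Krt19). It was also 3 of 10 with the replicate block (both Clu probes and Spp1). Without dibromoethane replicate 3, and again without control replicate 2, it was 2 of 10 (both Clu probes). It was 1 of 10 with scan day as a fixed block (Krt19), with normexp (Vim) and without dibromoethane replicate 1 (Krt18 probe A_44_P1025476). In the remaining alternative fits it was 0, and in every fit 0 passed after adjustment in limma. The adjusted p of the marker probes lay between 0.493 and 0.941. Taking the brightest probe of each gene, 6 of 7 had a positive difference, dibromoethane minus control, with a median of 0.17. Within slide 1, 6 of 7 were positive, with a median of 0.17, but within slide 2 only 3 of 7 were, with a median of -0.03. Over all tested probes 46.8% were positive, with a median of -0.01. The 3 dibromoethane animals lay above all 3 controls for 1 of the 10 probes (7.57% of all tested probes) and below them for 0 (11.8% of all).

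**Figure D1:**
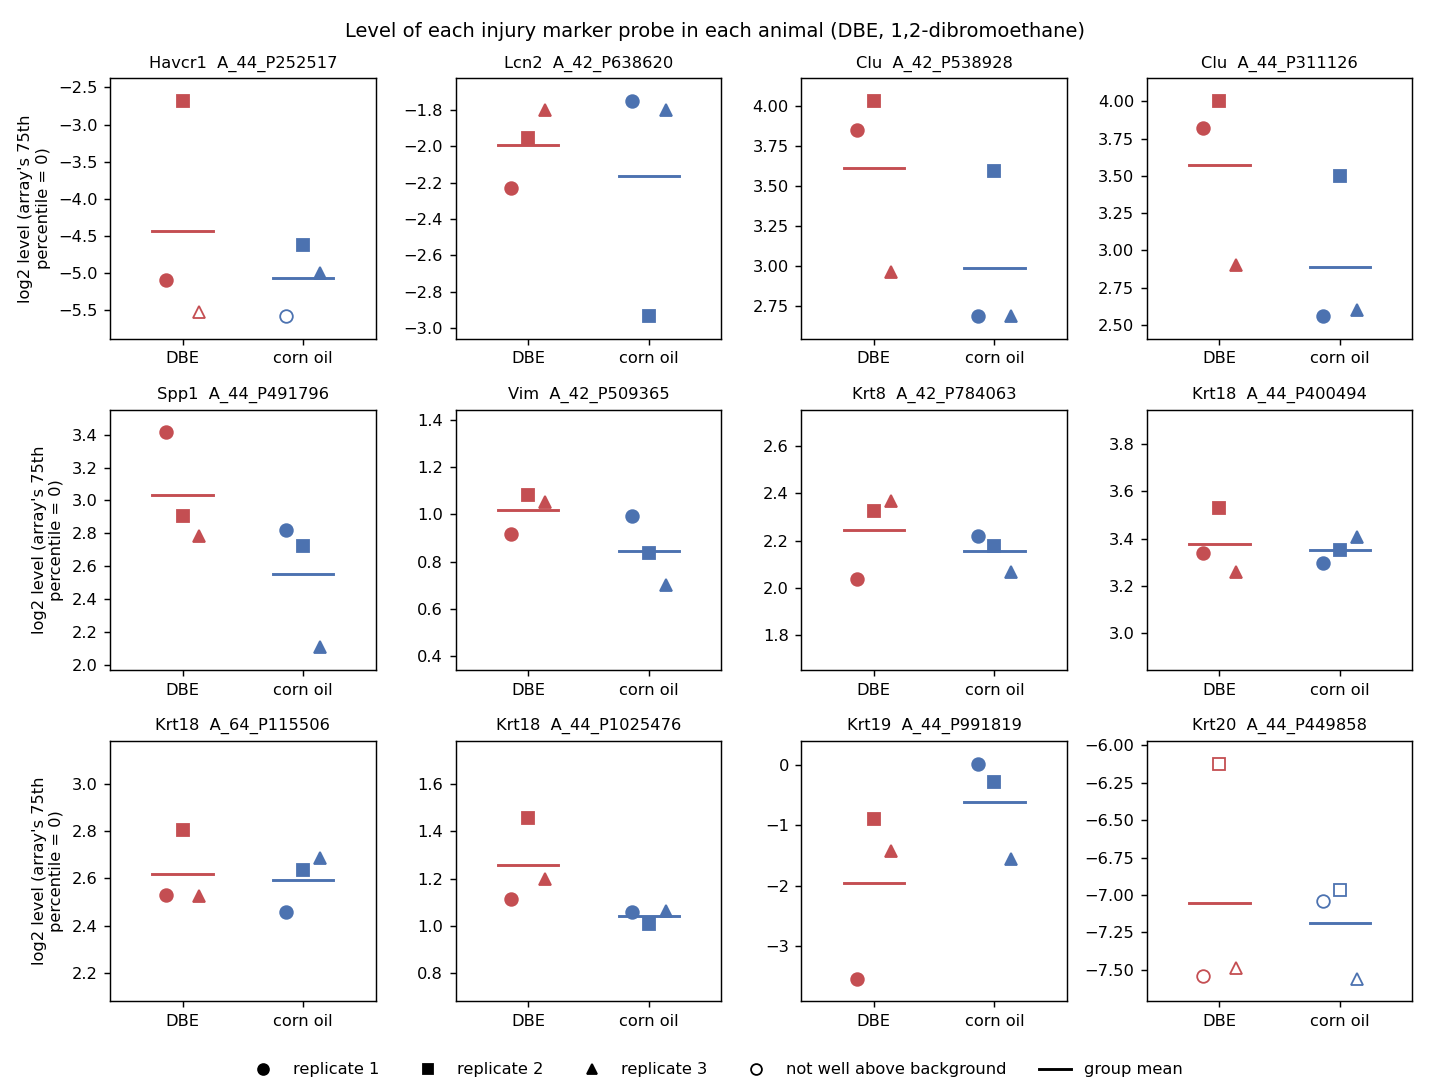
Log2 level of each of the 12 marker probes in each animal (vertical axis, array's 75th percentile at 0; scales differ between panels), with dibromoethane animals (DBE) left of corn oil animals, bars at group means and open symbols for spots not well above background. Groups overlap in every panel but that of Krt18 probe A_44_P1025476, and the Havcr1 signal stands apart in dibromoethane replicate 2 alone, at -2.68.

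Havcr1 was seen in 1 animal well above the others. Its single probe, A_44_P252517, had log2 levels of -5.09, -2.68 and -5.53 in dibromoethane replicates 1, 2 and 3, against -5.58, -4.62 and -5.00 in control replicates 1, 2 and 3. Dibromoethane replicate 2 was thus 3.83-fold above the next highest array, control replicate 2, while the other dosed animals fell inside the control range. As processed signal this was 130 units in dibromoethane replicate 2, against 17.9 to 33 units in controls, with 27.6 and 19.6 in the other dosed animals. The spot in dibromoethane replicate 2 carried no outlier flag, and its median pixel signal was 222 over a local background of 92.

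The probe was well above background in 2 dosed animals (replicates 1 and 2) and in 2 controls (replicates 2 and 3), so it did not qualify for the fit. Its difference of means was 0.63 (two-sided exact permutation p = 0.8 over 3 and 3 arrays, where the smallest possible is 0.1). Fitted without the filter on dim probes, the same difference had an SE of 0.79 (limma adjusted p = 0.974). Within slide 1, where dibromoethane replicate 2 was scanned beside control replicates 1 and 2, Havcr1 stood 2.42 higher in the dosed animal. Within slide 2, dibromoethane replicate 1 against control replicate 3, the difference was -0.09.

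The 3 named genes whose profile over the 6 arrays was most like that of Havcr1 were Socs5, L3mbtl2 and Med12. The root mean square gaps after centring were 0.26, 0.29 and 0.33 log2 units, among 384 probes with a comparable range. Socs5 encodes a suppressor of cytokine signalling, L3mbtl2 a chromatin protein and Med12 a Mediator subunit. The Socs5 probe A_43_P17663 had levels of -2.39, -0.10 and -2.45 in dosed animals, against -2.46, -2.13 and -1.87 in controls. The brighter Socs5 probe, A_64_P125858, gave 1.47, 1.50 and 1.50 in dosed animals, against 1.54, 1.57 and 1.54 in controls. In the same way the brighter probe of L3mbtl2, A_64_P064173, spanned 0.59 to 0.73 in dosed animals and 0.40 to 0.69 in controls. For Med12, the brightest probe A_44_P222710 spanned 3.13 to 3.22 in dosed animals and 3.02 to 3.11 in controls. The peak in dibromoethane replicate 2 was therefore a feature of 1 probe in each of these 3 genes, and Havcr1 has no further probe to set beside its own.

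**Figure D2:**
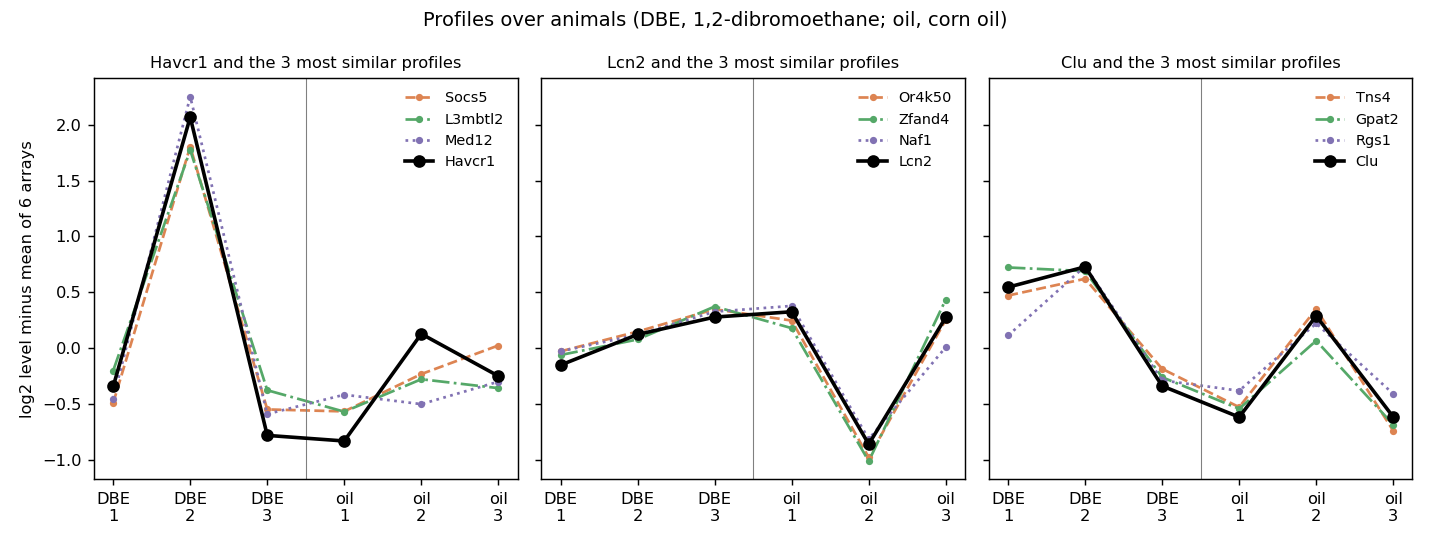
Log2 level minus the mean of the 6 arrays (vertical axis) for Havcr1, Lcn2 and Clu in black, each with the 3 named genes of most similar profile, in dibromoethane animals (DBE 1 to 3) and then corn oil animals (oil 1 to 3). Havcr1 peaks in dibromoethane replicate 2, Lcn2 dips in control replicate 2, and Clu is high in dibromoethane replicates 1 and 2 and in control replicate 2.

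Of the secreted markers, Lcn2 was nearly level between the groups, with 1 low control. Lcn2, an iron-siderophore binding protein also made by neutrophils, had levels of -2.23, -1.95 and -1.80 in dosed animals, against -1.75, -2.94 and -1.80 in controls. The dosed values sat between those of the controls, and control replicate 2 lay lowest of all arrays. The difference was 0.17 (SE 0.33, 95% interval -0.64 to 0.98, limma adjusted p = 0.869). Without control replicate 2 it was -0.22. It was 0.39 within slide 1 and -0.43 within slide 2. The profiles most like it, those of Or4k50, Zfand4 and Naf1 (root mean square gaps of 0.08, 0.12 and 0.12 among 2630 probes), came from dim probes, all below the well-above-background mark in control replicate 2. For Zfand4 and Naf1 the brighter probe did not dip there, with -2.42 and 0.36 in control replicate 2. Of the 8 neutrophil markers listed, 7 had a probe; Cxcr2, Elane and Ngp were dim (not well above background) in all 6 animals, and the summed level of the 7 ran from 0.764 to 0.990 in dosed animals and from 0.878 to 1.01 in controls, in units of the array's 75th percentile.

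Clu had the widest positive difference among the 10 tested probes, yet its groups overlapped. Clusterin is an extracellular chaperone. On probe A_42_P538928 it had levels of 3.85, 4.03 and 2.97 in dosed animals, against 2.69, 3.59 and 2.69 in controls. Dibromoethane replicates 1 and 2 exceeded every control, while dibromoethane replicate 3 was below control replicate 2. The difference was 0.63 (SE 0.37, 95% interval -0.26 to 1.52), a ratio of 1.54 (limma adjusted p = 0.55). The other probe, A_44_P311126, gave 0.69 (SE 0.38, limma adjusted p = 0.53), and after centring the probes differed by at most 0.06 on any array. Against the control mean, the first probe was 1.81-fold, 2.06-fold and 0.984-fold in dibromoethane replicates 1, 2 and 3.

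Within slides, Clu was 0.89 higher on slide 1 and 1.16 higher on slide 2 (probe A_42_P538928). With slide as a fixed block the difference was 1.01 (limma adjusted p = 0.402), and over all 17 alternative fits it ran from 0.42 to 1.01, with adjusted p from 0.389 to 0.921. Without dibromoethane replicate 3 it was 0.95, and without control replicate 2 it was 0.93. The genes most like Clu were Tns4, which encodes a focal adhesion protein, Gpat2, a glycerol phosphate acyltransferase, and Rgs1, a regulator of G protein signalling (gaps of 0.11, 0.13 and 0.22 among 2084 probes). The second probe of Tns4 had -2.32, -2.05 and -2.86 in dosed animals, against -3.22, -2.57 and -3.41 in controls, with the same arrays high as for Clu. The second probe of Gpat2 gave a difference of 1.32 (limma adjusted p = 0.361), with every dosed animal above every control. The brighter probe of Rgs1 instead gave a difference of -0.41.

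Clu is also abundant in liver, and transcripts typical of liver differed between animals. Of 15 liver genes 14 had a positive difference, with a median of 1.26; 4 were higher without overlap (7.57% of all probes) and 0 passed over all probes. Their summed level was 92.2, 51.5 and 39.6 in dibromoethane replicates 1, 2 and 3, against 25.6, 40.9 and 39.7 in control replicates 1, 2 and 3. Alb, the serum albumin gene, had levels of 3.82, 2.11 and 1.94 in dosed animals, against -1.16, 1.95 and 1.50 in controls, a difference of 1.86 (SE 0.92, limma adjusted p = 0.5). The other Alb probes gave 1.43 and 2.06, with every dosed animal above every control (limma adjusted p = 0.487 and 0.476). Fgb, the fibrinogen beta chain, had 1.98, 1.13 and 0.33 in dosed animals, against -0.59, 0.24 and 0.56 in controls. Alb was highest in dibromoethane replicate 1 and Clu in dibromoethane replicate 2, and both were low in control replicate 1. In control replicate 3 Clu was about as low, at 2.69 on probe A_42_P538928, while Alb was at 1.50. The part of these transcripts in the Clu values was not tested.

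Spp1, an acidic glycoprotein that binds integrins and calcium salts, was higher on average in dosed animals, with groups that overlapped. Its levels were 3.42, 2.91 and 2.78 in dosed animals, against 2.82, 2.72 and 2.11 in controls. Control replicate 1 was above dibromoethane replicate 3, so the groups met, with dibromoethane replicate 1 at the top and control replicate 3 at the bottom. The difference was 0.48 (SE 0.25, 95% interval -0.12 to 1.09), a ratio of 1.40 (limma adjusted p = 0.506). It was 1.31 within slide 2, which held both of those extreme arrays, and 0.13 within slide 1. Leaving out control replicate 3 lowered it to 0.26, and leaving out dibromoethane replicate 1 to 0.29. Macrophages make Spp1 as well. Of 11 macrophage markers 10 were tested, 0 passed and 7 had a negative difference, 4 of them without overlap (11.8% of all probes). At an unadjusted p under 0.05 in limma 3 were lower, as were 2454 of all 37274 tested probes. C1qb and C1qa, chains of complement C1q, had differences of -0.48 (SE 0.09, limma adjusted p = 0.242) and -0.54 (SE 0.13, limma adjusted p = 0.316). The summed level of the 11 was 103.3 to 115.2 in dosed animals and 107.1 to 118.7 in controls. Lyz2, the lysozyme gene, was by far the brightest of the 11 and made up most of that sum. It was at 6.21 to 6.32 in dosed animals and 6.04 to 6.29 in controls. The sum therefore mainly follows Lyz2 and says little about the other macrophage markers. Cd163 was dim in all 6 animals.

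**Figure D3:**
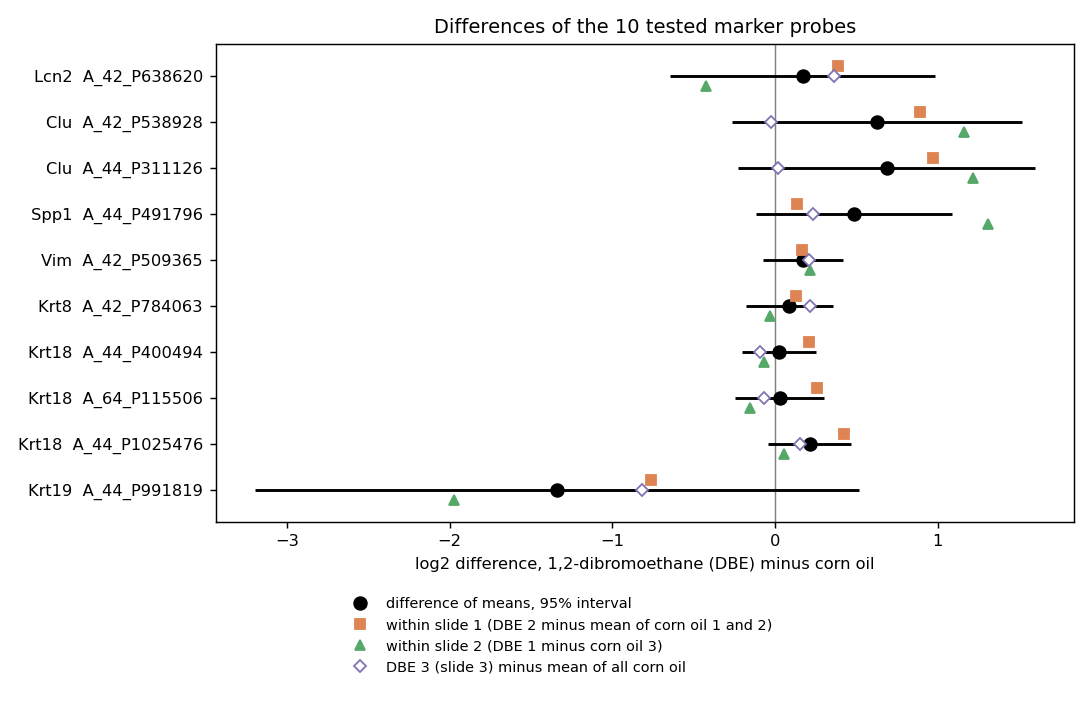
Log2 difference, dibromoethane minus corn oil (horizontal axis), for the 10 tested marker probes: black points with 95% intervals from limma, and coloured symbols for slide 1, slide 2 and the single animal of slide 3. Every interval covers 0; Clu, Spp1, Vim and Krt18 probe A_44_P1025476 are positive on slides 1 and 2, and Krt19 is negative on both.

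Vim differed little between the groups, by similar amounts within slides 1 and 2. Its levels were 0.92, 1.08 and 1.05 in dosed animals, against 0.99, 0.84 and 0.70 in controls. Control replicate 1 lay above dibromoethane replicate 1, which was the overlap. The difference was 0.17 (SE 0.10, 95% interval -0.07 to 0.42), a ratio of 1.13 (limma adjusted p = 0.549). It was 0.17 within slide 1 and 0.21 within slide 2. Vimentin is made by fibroblasts, endothelium and podocytes too. Among fibroblast and smooth muscle markers 9 of 10 were tested, with a median of 0.14, 5 positive and 0 passing. Without overlap 2 were higher (7.57% of all probes) and 0 lower (11.8% of all). At an unadjusted p under 0.05 in limma 3 were higher and 0 lower, against 1747 and 2454 of all 37274 tested probes. The summed level of the 10 was 35.8 to 40.3 in dosed animals and 30.5 to 36.7 in controls. The summed level of 8 endothelial markers was 36.6 to 39.1 in dosed animals and 34.5 to 37.8 in controls. That of 7 podocyte markers was 32.8 to 45.9 in dosed animals and 37.8 to 38.8 in controls. Kdr, the brightest endothelial marker, made up most of the first sum, and Podxl was the largest part of the second. Without overlap 1 endothelial marker was higher and 0 lower, and 1 podocyte marker was lower and 0 higher. In both lists 0 passed. The part of these cells in the Vim values was not tested.

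The simple epithelial pair Krt8 and Krt18 was close to level. Krt8 had levels of 2.04, 2.32 and 2.37 in dosed animals, against 2.22, 2.18 and 2.07 in controls. Dibromoethane replicate 1 was the lowest array and replicate 3 the highest, on either side of the controls. The difference was 0.09 (SE 0.11, 95% interval -0.18 to 0.36, limma adjusted p = 0.785), which does not show that the groups are alike.

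Krt18, read by 3 probes, showed a small difference on 1 of them. The brightest, A_44_P400494, had 3.34, 3.53 and 3.26 in dosed animals, against 3.30, 3.35 and 3.41 in controls, a difference of 0.03 (SE 0.09, 95% interval -0.20 to 0.25). The second, A_64_P115506, had 2.53, 2.80 and 2.52 in dosed animals, against 2.46, 2.63 and 2.69 in controls, and also gave 0.03 (SE 0.11). The dimmest, A_44_P1025476, had 1.12, 1.46 and 1.20 in dosed animals, against 1.06, 1.01 and 1.06 in controls. On this probe alone of the 10 the groups did not overlap, and the difference was 0.21 (SE 0.10, 95% interval -0.04 to 0.47, limma adjusted p = 0.493; two-sided exact permutation p = 0.1, the smallest possible). Dibromoethane replicate 2 was the highest array on all 3 Krt18 probes. The first pair of probes changed sign when each array was centred on its median, to -0.0096 and -0.0076, so no direction holds for them.

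Krt19, a type I keratin without the usual tail domain that marks ductal epithelium, varied far more between animals than the other keratins. Its levels were -3.53, -0.89 and -1.42 in dosed animals, against 0.02, -0.28 and -1.56 in controls. Dibromoethane replicate 1 was the lowest array, and control replicate 3 lay below the other 2 dosed animals. The difference was -1.34 (SE 0.76, 95% interval -3.20 to 0.52), a ratio of 0.395 (limma adjusted p = 0.543). It was -0.76 within slide 1 and -1.97 within slide 2, and -0.55 without dibromoethane replicate 1. It stayed negative in all 17 alternative fits, at adjusted p from 0.312 to 0.913.

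Krt20, a keratin of gut and transitional epithelium that injured tubules can acquire, was not well above background in any animal. Its processed signals were 5.06, 12 and 5.04 units in dosed animals, against 6.51, 6.5 and 4.57 units in controls, so no fold is given. Keratins could also come from urothelium or collecting duct. Of 6 urothelial markers 5 had a probe and 3 were tested, of which 3 had a positive difference and 0 passed. Without overlap 1 was higher (7.57% of all probes). At an unadjusted p under 0.05 in limma 2 were higher, as were 1747 of all 37274 tested probes. The summed level of the 5, tested or not, was 0.366 to 0.454 in dosed animals and 0.301 to 0.317 in controls. Upk2 was dim in all 6 animals. The summed level of 14 distal tubule and collecting duct markers was 392 to 478 in dosed animals and 434 to 463 in controls. Klk1 and Aqp2 made up most of that sum. Of the 13 tested, 7 had a positive difference, 2 of them without overlap, and 0 passed. The part of these cells in the keratin values was not tested.

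The markers fell into a steady set and a variable set by their spread within groups. The pooled within-group SD was 0.12 for Vim, 0.14 for Krt8 and 0.11 to 0.14 for Krt18, against a median of 0.14 over 37262 probes with all 6 values. It was 0.50 for Lcn2, 0.55 and 0.56 for the Clu probes, 0.36 for Spp1 and 1.15 for Krt19, larger than in 94.3%, 95.4%, 95.7%, 88.7% and 99.4% of all those probes. Dibromoethane replicate 2 was the highest array for 3 of the 7 tested genes (Clu, Vim and Krt18) and the lowest for 0. Over all probes it was the highest array for 16.5% and the lowest for 18.7%. Its array also had the fewest probes well above background, 59.2% against 61.4% to 67.8% on the others.

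A wider list of 40 injury and repair genes also had no member passing adjustment. Of 38 tested, 0 passed over all probes, 15 had a positive and 23 a negative difference, and the median was -0.07. Without overlap 5 were higher (7.57% of all probes) and 3 lower (11.8% of all). At an unadjusted p under 0.05 in limma 4 were higher and 4 lower. Over all 37274 tested probes, 1747 were higher and 2454 lower at that p. Hbegf, an EGF receptor ligand, had levels of -2.19, -1.89 and -2.27 in dosed animals, against -2.58, -2.51 and -2.60 in controls, without overlap. Its difference was 0.45 (SE 0.11, limma adjusted p = 0.339), with 0.33 on its other probe. Tff3, a trefoil peptide secreted by epithelia and lost from urine in some tubular injuries of the rat, had 3.32, 3.40 and 1.51 in dosed animals, against 4.66, 4.81 and 4.55 in controls. Every dosed animal lay below every control, by the most in dibromoethane replicate 3. The Tff3 difference was -1.93 (SE 0.50, limma adjusted p = 0.346), and -1.97 on its other probe. Of 7 thick ascending limb markers 6 had a negative difference and 0 passed. Without overlap 2 were lower and 0 higher. The summed level of the 7 was 274.4, 397.7 and 164.8 in dibromoethane replicates 1, 2 and 3, against 356.1 to 381.8 in controls. It was thus also lowest in dibromoethane replicate 3. Umod, by far the brightest of the 7, made up most of that sum, which therefore mainly follows Umod. Its levels were 7.73, 8.36 and 6.94 in dosed animals, against 8.23, 8.33 and 8.19 in controls. The part of these cells in the Tff3, Clu and Spp1 values was not tested.

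**Figure D4:**
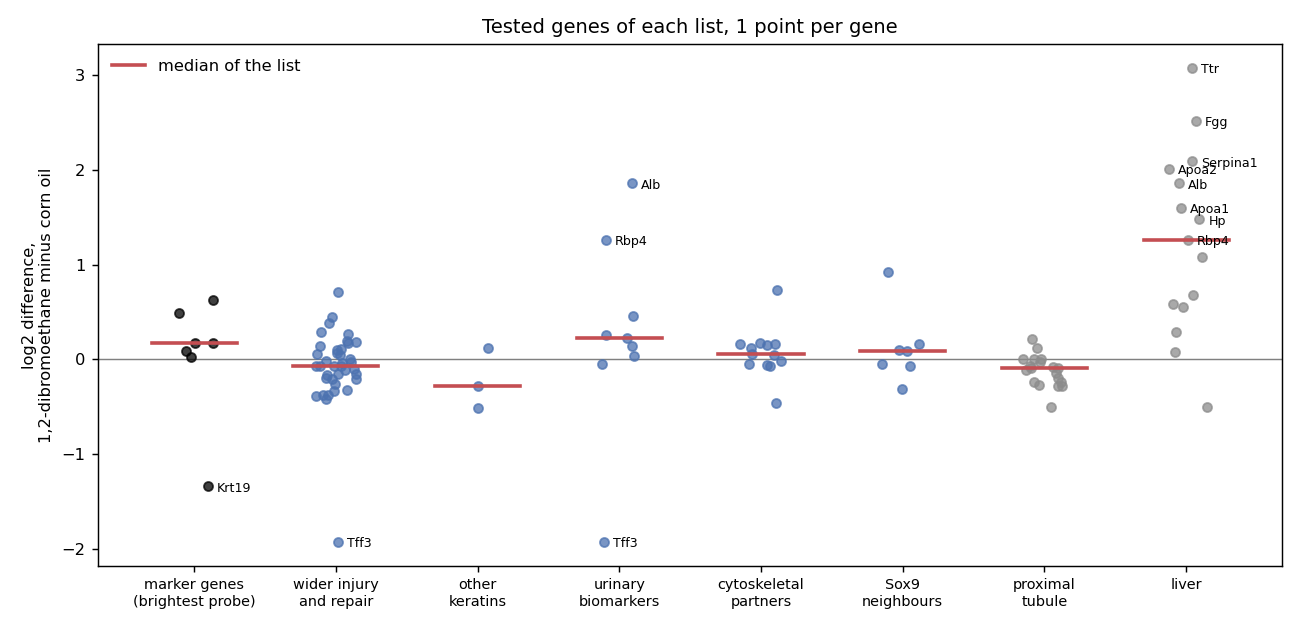
Log2 difference, dibromoethane minus corn oil (vertical axis), of each tested gene in the marker set and in 7 lists (horizontal axis), with red bars at list medians. The 7 marker genes spread from -1.34 (Krt19) to 0.63 (Clu) around a median of 0.17, and the liver list has a median of 1.26.

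Other kidney safety markers measured in urine were positive for 7 of 9 genes, with a median of 0.22 and 0 passing. Besides Tff3, the smallest p belonged to Gstp1, the pi class glutathione transferase. Its levels were 5.95, 6.57 and 6.48 in dosed animals, against 5.70, 5.95 and 6.005 in controls, a difference of 0.45 (SE 0.18, limma adjusted p = 0.442), with 0.68 and 0.69 on its other probes. Among 8 other keratins of simple and transitional epithelia 3 were tested and 0 passed. Krt7, a type II keratin of ducts, had a difference of -0.29 (SE 0.10, limma adjusted p = 0.396), with 3.87 to 4.14 in dosed animals and 4.16 to 4.34 in controls. Krt80 gave -0.51 (SE 0.29).

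Cytoskeletal partners of keratins and vimentin were near level, with 8 of 13 tested genes positive, a median of 0.05 and 0 passing. Lmnb1, the nuclear lamin B1, had levels of 1.27 to 1.45 in dosed animals and 1.77 to 1.88 in controls, a difference of -0.46 (SE 0.08, limma adjusted p = 0.228). Evpl, the plakin envoplakin, had -1.19 to -0.98 in dosed animals and -2.19 to -1.51 in controls, a difference of 0.73 (SE 0.18, limma adjusted p = 0.326), with 0.52 on its other probe. Of 12 genes listed here as possible Sox9 neighbours in tubule repair, 7 were tested, 4 were positive, the median was 0.09 and 0 passed. Hes1, a Notch target, had -1.14, -0.88 and -0.92 in dosed animals, against -1.98, -2.12 and -1.62 in controls, without overlap. Its difference was 0.93 (SE 0.15, limma adjusted p = 0.217), with 0.48 on its other probe. Lgr4, an R-spondin receptor, gave -0.32 (SE 0.12, limma adjusted p = 0.421).

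Markers of the differentiated proximal tubule were present at high level on every array. Slc34a1, the apical phosphate transporter, had 8.23, 8.17 and 8.21 in dosed animals, against 8.26, 8.28 and 8.30 in controls. All 3 dosed animals were below the controls, by 0.08 on average (SE 0.06, limma adjusted p = 0.674). Of 19 proximal tubule genes 15 had a negative difference, with a median of -0.10 and 0 passing. Without overlap 6 were lower (11.8% of all probes). At an unadjusted p under 0.05 in limma 5 were lower, as were 2454 of all 37274 tested probes. Slc22a6, the basolateral organic anion transporter, had 7.99 to 8.06 in dosed animals and 8.28 to 8.36 in controls, a difference of -0.28 (SE 0.07, limma adjusted p = 0.316). Aqp1, a water channel, had 6.53 to 6.80 in dosed animals and 6.85 to 7.04 in controls, also -0.28 (SE 0.10, limma adjusted p = 0.398). Over the 19 genes the summed level was 3105 to 3205 in dosed animals and 3357 to 3564 in controls. Dibromoethane replicate 2, the animal with the Havcr1 signal, had the highest of the 3 dosed sums, at 3205.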

How the data were processed

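Total RNA of renal cortex was labelled with Cy3, per the labels' protocols, and the deposited scanner files hold intensity per spot, background-subtracted by Agilent Feature Extraction 10.7.1.1 on design 045522 (grid build rn4), per the file headers. The submitters' processing notes name Feature Extraction 10.7. The deposited series table holds intensity too, on a linear scale without gene centring; its log2 values tracked the scanner values at r = 1 on all 6 arrays, with column medians of 0.11, 0.105 and 0.107 for dosed animals 1 to 3 and 0.101, 0.102 and 0.112 for controls 1 to 3.

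Of 62976 spots, 1439 controls and 84 ERCC probes were left out, leaving 61453 probes. Accessions without versions gave 28206 probes 1 of 15645 symbols (RefSeq, GRCr8, used for names and promoters only). From each log2 signal the 75th percentile of its array was subtracted. Spots with an outlier flag (1 to 11 per array, 0 of them on marker probes) were set to missing, and 0 spots were saturated. A probe was tested if every array of either group had it well above background, which left 37274. The fit used limma 3.58.1 under R 4.3.3 (functions lmFit and eBayes, with 4 degrees of freedom from residuals and 2.13 from the prior), two-sided, without covariates, with Benjamini-Hochberg adjustment across all of them at a threshold of 0.05. The fit was tested on simulated data. Genes of the other lists were read from their brightest probe. All 10 markers were named with every probe; of each of 5 pathway lists, members that passed or else the 2 with the smallest p; Alb, Fgb and Slc34a1; and the 3 most similar profiles of Havcr1, Lcn2 and Clu, among probes with at least 0.8 of the member's range and well above background on at least 3 arrays. The markers and lists were chosen with earlier results of these data known. Cxcr2, Elane, Ngp, Cd163 and Upk2 were named for being dim. Slc22a6, Aqp1, C1qb, C1qa, Lyz2, Umod, Kdr, Podxl, Klk1 and Aqp2 were named after their values were seen. Lists for parietal epithelium and for thin limb and inner medulla had 0 members passing.

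Dibromoethane replicate 2 shared slide 1 with control replicates 1 and 2. Dibromoethane replicate 1 shared slide 2, scanned on another day, with control replicate 3. Dibromoethane replicate 3 was alone on slide 3. Alternatives were quantile normalization, median centring, normexp with an offset of 50 (on median pixel signals, in place of the planned means), no filter, 1 probe per gene, slide and scan day as blocks, the replicate block, trend and robust, the series table and leaving out each array. Precision is limited by 3 arrays per group.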

Additional observations from a re-analysis of the deposited data

How the results depend on the processing

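None of the marker probes passed in any of 17 alternative fits, and of 167 marker values 160 kept their sign. The exceptions were the Krt18 probes A_44_P400494 and A_64_P115506, at -0.0096 and -0.0076 with median centring and, leaving out 1 array, -0.051 to 0.084 and -0.064 to 0.075, and Lcn2, at -0.22 to 0.37 when leaving out 1 array. The number of probes changed, 10 of 37274 here, was 6 with normexp, 1 without a filter, 0 with slide as a fixed block (4378 at an unadjusted p under 0.05 in limma), 2 with scan day as a fixed block, 20 with trend and robust, and 1 to 12 leaving out 1 array: 1, 2 and 7 without dibromoethane replicates 1, 2 and 3 and 4, 1 and 12 without control replicates 1, 2 and 3. The cause was not tested, except that without a filter 61453 probes were tested and that slide as a fixed block leaves fewer residual degrees of freedom. With the replicate block 0 probes passed (4452 at an unadjusted p under 0.05 in limma). Same-numbered arrays correlated in their deviations from the group means at -0.20, 0.24 and 0.13 over probes. Dibromoethane replicates 2 and 3 correlated best with the control of their own number, and replicate 1 with control replicate 3. Dibromoethane replicate 1 shared a slide with control replicate 3, and dibromoethane replicate 2 with control replicate 2. These values therefore cannot settle whether the numbers pair the animals.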
